A study of Homo sapiens with 8 samples.

Results

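Long intergenic noncoding RNAs (lincRNAs) that were expressed in MDA-MB468 and BT549 triple-negative breast cancer cells were described in 8 RNA-seq libraries. The members were the rows of the raw count table with the biotype lincRNA and a mean of 2 or more CPM (counts per 1000000 counts of the library) over the 8 libraries. They were 229 of 6494 lincRNA rows and of 55679 gene identifiers. Of the lincRNA rows, 3968 had any count. The members were thus chosen by their mean CPM in these same libraries, so their levels are given as a description.

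MDA-MB468 is an epithelial, basal-like line and BT549 a mesenchymal-like line, and both lack the receptors that define other breast cancers. Each line was sequenced as parental cells and as CE (chronic exposure) cells, which had been passaged in rising Acetalax up to 40 μmol/L, were described by the submitters as resistant clones, and had been kept without the drug for 2 weeks. Parental and CE cells of each line were taken without drug or after 1 μmol/L Acetalax (oxyphenisatin acetate, a laxative related to bisacodyl) for 6 hours, which gives 8 conditions with 1 library each. No condition was replicated and 1 CE derivative stood for each line. In the test of the drug effect the 4 backgrounds (MDA-MB468 parental, MDA-MB468 CE, BT549 parental and BT549 CE) therefore served as replicates. Its p-values measure the spread between these backgrounds.

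LincRNAs are transcribed by RNA polymerase II outside protein-coding genes and are mostly spliced, polyadenylated and less abundant than mRNAs. NEAT1 builds paraspeckles, nuclear bodies that hold RNA-binding proteins, and MALAT1 collects in nuclear speckles with splicing factors. NORAD (LINC00657 in the table) binds Pumilio proteins. Other lincRNAs are the primary transcripts of microRNAs or of small nucleolar RNAs, which are cut from the transcript or its introns, and some start back to back with a coding gene from a shared promoter region. MALAT1 and the long form of NEAT1 end in a triple helix and not in a poly(A) tail, so a poly(A) selected library does not capture them as it captures an mRNA.

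Mature microRNAs of RefSeq were found on the sense strand within the spans of 18 members, 47 in all. The sequences below belong to the microRNA hosts that the results turn on, with the seed (bases 2 to 8) in capitals and positions from a match to GRCh37. The libraries measured the host transcript and not the mature microRNA.
MIR24-2 (MIR23AHG) holds miR-24-3p, chr19:13947103-13947124, minus strand: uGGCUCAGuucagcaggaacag
RP6-99M1.2 (MIR222HG) holds miR-221-3p, chrX:45605608-45605630, minus strand: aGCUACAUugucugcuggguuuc
RP6-99M1.2 (MIR222HG) also holds miR-222-3p, chrX:45606442-45606462, minus strand: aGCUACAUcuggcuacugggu
LINC00472 holds miR-30a-5p, chr6:72113298-72113319, minus strand: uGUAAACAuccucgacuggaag
LINC00472 also holds miR-30c-5p, chr6:72086706-72086728, minus strand: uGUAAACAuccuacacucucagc
MIR503HG holds miR-503-5p, chrX:133680401-133680423, minus strand: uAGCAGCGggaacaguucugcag
MIR503HG also holds miR-424-5p, chrX:133680710-133680731, minus strand: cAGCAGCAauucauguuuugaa
MIR210HG holds miR-210-3p, chr11:568112-568133, minus strand: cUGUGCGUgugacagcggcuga
MIR205HG holds miR-205-5p, chr1:209605511-209605532, plus strand: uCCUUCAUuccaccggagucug
MIR137HG holds miR-137-3p, chr1:98511647-98511669, minus strand: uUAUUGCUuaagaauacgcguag
LINC00925 (MIR9-3HG) holds miR-9-5p, chr15:89911263-89911285, plus strand: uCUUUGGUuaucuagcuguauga
DIO3OS holds miR-1247-5p, chr14:102026699-102026720, minus strand: aCCCGUCCcguucguccccgga
MEG3 holds miR-770-5p, chr14:101318746-101318768, plus strand: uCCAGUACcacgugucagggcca
Seeds were shared between 2 mature microRNAs in 2 hosts, GCUACAU in RP6-99M1.2 and GUAAACA in LINC00472. No seed of 1 host recurred in another. Both statements cover the 47 matched microRNAs only. The match may have missed others, since miR-22 of the member MIR22HG was not among them.

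The members were low in abundance and a few of them held much of the signal. They made up 84.1% of all lincRNA counts, and lincRNAs made up between 0.258% and 0.409% of the counts of a library. NEAT1 and LINC00657 together held 24.1% of the members' counts and the 10 most abundant members 42.0%. After NEAT1 (381 CPM on average) and LINC00657 (279.98) came CRNDE (98.7), MALAT1 (63.9), LINC00665 (63.2), MIR205HG (62.6), LINC00662 (59.3), SNHG15 (59), MIR24-2 (45.1) and LINC01133 (43.4). The median member had a mean of 4.56 CPM, and 121 members lay under 5 CPM. Per length, the median member had 1.56 FPKM (CPM per 1000 bases of merged exon, computed here from the counts) against 6.50 for protein-coding genes with a mean of 2 CPM or more. Per length LINC00657 led at 52.4 FPKM and LINC01133 reached 34.3, against 16.7 for NEAT1, whose merged exon is 22767 bases long. Just inside the limit were RP11-380J14.1 at 2.02, GDNF-AS1 at 2.01 and RP11-46D6.1 at 2.01 CPM, and just outside it LINC00441 and RP11-1094H24.4, both at 1.96, and KLHL7-AS1 at 1.93.

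Library totals ran from 42261122 to 54241728 counts on genes, so that 2 CPM stood for 84.5 to 108.5 counts. Marker genes separated the lines as labelled. The summed CPM of 8 epithelial markers lay between 7174 and 9635 in MDA-MB468 and between 8.21 and 90.6 in BT549, with the higher BT549 values in CE cells. That of 7 mesenchymal markers lay between 15.6 and 55.9 in MDA-MB468 and between 3784 and 5255 in BT549. ESR1, PGR and ERBB2, the receptors that triple-negative cells lack or hold little of, summed to between 41.2 and 100.3 CPM, and 4 blood cell markers to no more than 0.756 CPM. In the current GENCODE annotation 203 of the 229 were long noncoding RNAs and 12 were protein-coding genes, among them C11orf95 (ZFTA), LINC00116 (MTLN), LINC00493 (SMIM26) and TINCR. A further 2 were U3 small nucleolar RNA genes (SNORD3A and SNORD3B-2) and 1 was the small cytoplasmic RNA BCYRN1, for which near-identical copies leave the counts uncertain.

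NEAT1 (chr11:65190245-65213011, plus strand, hg19) was the most abundant member by counts. Without drug it was higher in CE than in parental cells of both lines, and with the drug it was higher in parental cells and lower in CE cells. It went from 291 to 634 CPM in MDA-MB468 parental cells, from 493 to 429 in MDA-MB468 CE cells, from 169.7 to 254 in BT549 parental cells and from 435 to 342 in BT549 CE cells. The log2 ratios of Acetalax to control were 1.13 and 0.58 in parental MDA-MB468 and BT549 and -0.20 and -0.35 in their CE cells, with 95% counting intervals of 1.10 to 1.16, 0.54 to 0.63, -0.23 to -0.17 and -0.38 to -0.32. Those intervals (exact Clopper-Pearson) cover counting error only, here and below. Between untreated CE and parental cells the log2 ratios were 0.76 in MDA-MB468 and 1.36 in BT549. Over 4 backgrounds the fitted change with Acetalax was 0.38 ± 0.22 (SE), adjusted p = 0.308 by edgeR's quasi-likelihood test, and the difference of the response between CE and parental cells was -1.08 on the log2 scale with an unadjusted p of 0.00274. No gene passed the adjusted threshold for that difference.

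MALAT1 (chr11:65265233-65273940, plus strand), which lies downstream of NEAT1 on the same strand, did not follow it. Its levels went from 44.9 to 39.8 CPM in MDA-MB468 parental cells, from 45.8 to 51.5 in MDA-MB468 CE cells, from 60.8 to 88.2 in BT549 parental cells and from 86.9 to 93.2 in BT549 CE cells. All 4 BT549 libraries lay above all 4 MDA-MB468 libraries, and the fitted difference between the lines was 1.01 ± 0.16 (SE), adjusted p = 0.00259. The Acetalax ratios ran from -0.17 to 0.53 and the fitted change did not pass the test, 0.25 ± 0.13 (SE), adjusted p = 0.252. Of 15 tested RNAs that lack a poly(A) tail (histone mRNAs, U RNAs and the like), none was called with Acetalax. Only 2 of the list had a mean of 2 CPM or more, 1 of them a member, and their median log2 change was 0.39. Over all genes of that level the median was -0.02. The summed level of the whole list was between 5.94 and 16.5 CPM per library. Of 34 paraspeckle proteins and 24 nuclear speckle proteins tested, none was called with Acetalax either. Those with a mean of 2 CPM or more (33 and 24) had median log2 changes of 0.03 and 0.11.

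**Figure D1:**
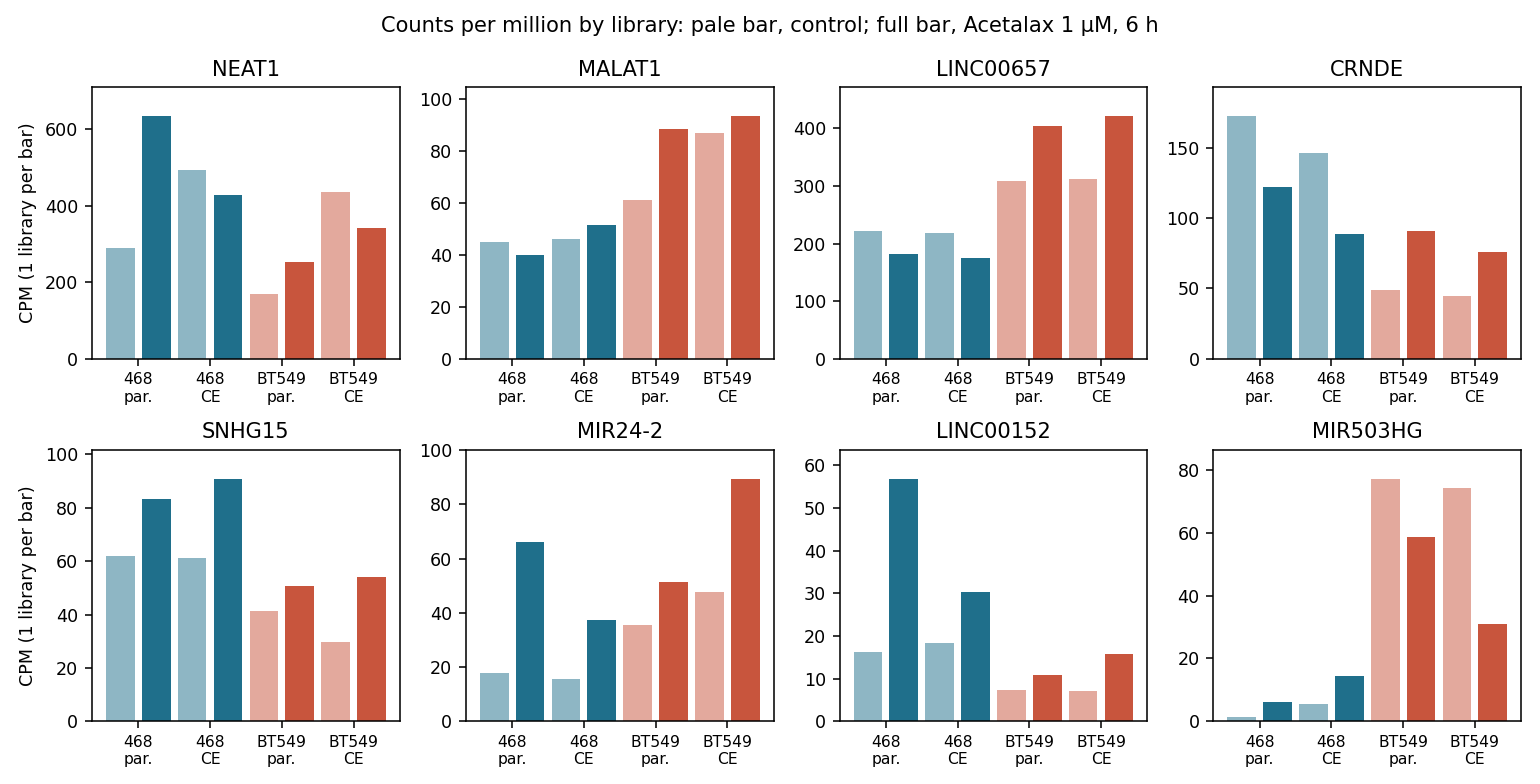
CPM (vertical axis, linear, from 0) of 8 lincRNAs in the 8 libraries, 1 bar per library, with blue for MDA-MB468, red for BT549, pale bars for control and full bars for Acetalax. NEAT1 was higher with the drug in parental cells of both lines and lower with it in CE cells, while MIR24-2 and SNHG15 were higher with the drug in 4 of 4 pairs.

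With Acetalax a small set of lincRNAs was higher, among them 3 microRNA hosts, and fewer were lower. By edgeR's quasi-likelihood test over the 4 backgrounds with Benjamini-Hochberg adjustment, 12 members (5.24%) were higher, where 2.72% of all genes tested and 3.6% of genes with a mean of 2 CPM or more were called higher. Lower calls were made for 2 members (0.873%), where 2.27% of all genes tested and 2.94% of genes with 2 CPM or more were called lower. Adjusted p-values of the 12 lay between 0.0295 and 0.0479, close to the threshold of 0.05, and the smallest of any gene was 0.0222. At an unadjusted p under 0.05 there were 93 members (40.6%, against 28.1% of all genes tested). Leaving out the MDA-MB468 parental pair gave 0 members called, and leaving out any other 1 of the pairs gave 5, with MIR24-2 and RP11-375I20.6 among them each time. Of the 14 calls over all pairs, 5 stayed without the BT549 CE pair, 4 without the BT549 parental pair and 5 without the MDA-MB468 CE pair. Scaling by library totals alone gave 10 higher and 7 lower, and DESeq2's Wald test called 26 higher and 34 lower. DESeq2 called the 14 of edgeR in the same direction.

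MicroRNA hosts were 3 of the 12. MIR24-2 (chr19:13945330-13947173, minus strand; MIR23AHG, the host of the miR-24-3p sequence above) went from 17.8 to 66 CPM in MDA-MB468 parental cells, from 15.4 to 37.4 in MDA-MB468 CE cells, from 35.4 to 51.5 in BT549 parental cells and from 47.8 to 89.4 in BT549 CE cells. It was higher in 4 of 4 pairs, by log2 ratios of 1.88, 1.27, 0.54 and 0.90 in the order above, and the fitted change was 1.24 ± 0.20 (SE), adjusted p = 0.0361. Of its exon bases 12.1% lie under exons of ZSWIM4 on the other strand, and the strand setting of the counting is not given in the sources used here. RP6-99M1.2 (chrX:45604639-45629677, minus strand; MIR222HG, the host of miR-221 and miR-222, which share a seed) went from 3.62 to 9.8 CPM in MDA-MB468 parental cells, from 4.92 to 10.5 in MDA-MB468 CE cells, from 16.3 to 20.3 in BT549 parental cells and from 10.7 to 23.2 in BT549 CE cells. The treated libraries lay above their controls in each background, least so in BT549 parental cells with a ratio of 0.32, and the BT549 libraries lay above those of MDA-MB468. Its fitted change was 1.08 ± 0.20 (SE), adjusted p = 0.0385. LINC00472 (chr6:72054047-72130472, minus strand), which holds miR-30a and miR-30c, went from 31.8 to 74.9 CPM in MDA-MB468 parental cells, from 26 to 52.5 in MDA-MB468 CE cells, from 11.7 to 14.2 in BT549 parental cells and from 15.5 to 25.8 in BT549 CE cells. It too was higher with the drug in 4 of 4 pairs, and its lowest MDA-MB468 value lay just above its highest BT549 value. The fitted change was 0.91 ± 0.17 (SE), adjusted p = 0.0379. Of the other 15 hosts with a matched microRNA none was called with the drug in either direction.

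RP11-375I20.6 (chr3:134066130-134068075, minus strand), a transcript of low abundance, was the 1 member that was at least 2-fold higher in 4 of 4 pairs (0.437% of members, 0.15% of genes with 2 CPM or more), and 0 members were at least 2-fold lower in 4 of 4 (0.0945% of genes). It went from 1.91 to 7.25 CPM in MDA-MB468 parental cells, from 1.99 to 4.44 in MDA-MB468 CE cells, from 0.237 to 0.805 in BT549 parental cells and from 0.240 to 0.692 in BT549 CE cells. MDA-MB468 had the higher levels, and the fitted change was 1.66 ± 0.23 (SE), adjusted p = 0.0295. RP1-140K8.5 had ratios of 3.54, 1.09, 1.07 and 0.51 and LA16c-380H5.5 of 0.70, 0.54, 0.36 and 0.88, and both missed the threshold (adjusted p = 0.0582 and 0.0606). HIF1A-AS2 in the table (HIF1A-AS3 in the current annotation; chr14:62182276-62217815, minus strand), which runs antisense to the hypoxia factor gene HIF1A, had a higher ratio in BT549 parental cells than any other called member. It went from 2.14 to 11.3 CPM in MDA-MB468 parental cells, from 3.19 to 11.5 in MDA-MB468 CE cells, from 1.18 to 11.8 in BT549 parental cells and from 0.424 to 0.554 in BT549 CE cells, so that 3 pairs had log2 ratios of 2.35, 1.81 and 3.21 and the BT549 CE pair 0.32. Only 5.93% of its exon bases lie under exons of HIF1A. The fitted change was 2.21 ± 0.40 (SE), adjusted p = 0.0377, and SNAPC1, the nearest coding gene, was also called higher, by 1.56 (adjusted p = 0.0318).

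LINC00152 (CYTOR; chr2:87754887-87906324, plus strand), a lincRNA often raised in tumors, went from 16.3 to 56.8 CPM in MDA-MB468 parental cells, from 18.5 to 30.4 in MDA-MB468 CE cells, from 7.29 to 10.9 in BT549 parental cells and from 7.12 to 15.8 in BT549 CE cells. Each treated library lay above its control, with the highest level in treated MDA-MB468 parental cells, and the fitted change was 1.16 ± 0.21 (SE), adjusted p = 0.0381. MIR4435-1HG, its near-identical copy on chromosome 2, went from 37.2 to 80.3 CPM in MDA-MB468 parental cells, from 32.1 to 39 in MDA-MB468 CE cells, from 29.5 to 33.9 in BT549 parental cells and from 26.7 to 40.2 in BT549 CE cells. It was higher in 4 of 4 pairs too but missed the threshold, 0.64 ± 0.16 (SE), adjusted p = 0.0609. How reads that match both copies were split is uncertain. LINC00702 (chr10:4243333-4286104, minus strand) went from 0.761 to 3.27 CPM in MDA-MB468 parental cells, from 0.476 to 0.862 in MDA-MB468 CE cells, from 13.5 to 25.6 in BT549 parental cells and from 5.05 to 15.3 in BT549 CE cells. It was mostly a BT549 transcript, higher with the drug in each background, with a fitted change of 1.48 ± 0.24 (SE), adjusted p = 0.0361. Its nearest coding gene, KLF6, starts 458631 bases away and rose by 0.87 on the log2 scale (adjusted p = 0.0385).

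Both members called higher on MDA-MB468 alone were near 0 in BT549. LINC00707 had 1.85 and 14.2 CPM in MDA-MB468 parental cells without and with drug, 2.97 and 8.73 in CE cells of that line, 0 and 0 in BT549 parental cells and 0.0184 and 0 in CE cells of that line. SFTA1P had 8.7 and 25.7 CPM in MDA-MB468 parental cells without and with drug, 11.8 and 23.8 in CE cells of that line, 0 and 0 in BT549 parental cells and 0 and 0 in CE cells of that line. Their fitted changes were 2.22 ± 0.45 (SE, adjusted p = 0.0461) and 1.34 ± 0.26 (SE, adjusted p = 0.0479), and the 2 BT549 pairs carry next to no information on them. SNHG15 (chr7:45022622-45026560, minus strand), the host of a small nucleolar RNA, went from 61.9 to 83.2 CPM in MDA-MB468 parental cells, from 61 to 90.8 in MDA-MB468 CE cells, from 41.2 to 50.6 in BT549 parental cells and from 29.6 to 54 in BT549 CE cells. Its change was small, 0.63 ± 0.13 (SE), adjusted p = 0.0424, and of the same sign in 4 of 4 pairs. Of 21 tested transcripts on a list of small nucleolar RNA hosts of any biotype, 3 were called higher (SNHG15, SNHG3 and LINC00338) and none lower. The 19 on the list with a mean of 2 CPM or more had a median change of 0.26, against -0.02 over all genes of that level.

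The remaining 2 higher calls were lincRNA rows that the current annotation lists as small RNA genes. They were counted over the spans given here, and whether the reads came from the small RNA itself was not tested. SNORD3B-2 (chr17:18966762-18967449, minus strand), a copy of the U3 RNA that guides rRNA processing, went from 2.06 to 3.75 CPM in MDA-MB468 parental cells, from 0.589 to 0.841 in MDA-MB468 CE cells, from 3.81 to 11.3 in BT549 parental cells and from 2.06 to 5.18 in BT549 CE cells. The fitted change was 1.21 ± 0.23 (SE), adjusted p = 0.0385, with the highest level in treated BT549 parental cells. SNORD3A, another U3 copy, went from 2.96 to 3.97 CPM in MDA-MB468 parental cells, from 1.81 to 1.68 in MDA-MB468 CE cells, from 2.08 to 3.82 in BT549 parental cells and from 0.664 to 2.02 in BT549 CE cells. It was lower with the drug in MDA-MB468 CE cells and was not called, 0.76 ± 0.29 (SE), adjusted p = 0.142. BCYRN1 (chr2:47558199-47571656, plus strand), a primate RNA derived from an Alu element, went from 2.67 to 5.44 CPM in MDA-MB468 parental cells, from 3.56 to 6.52 in MDA-MB468 CE cells, from 11.1 to 17.2 in BT549 parental cells and from 5.24 to 7.67 in BT549 CE cells. It was higher in 4 of 4 pairs, with a fitted change of 0.85 ± 0.16 (SE), adjusted p = 0.0379. U3 copies and Alu elements are near-identical across the genome, so which copy the reads came from is uncertain. The median change of 0.39 given above for RNAs without a poly(A) tail came from 2 RNAs, 1 of them a member. It is thus no comparison with a separate class, and the part of such RNAs in these calls was not tested.

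Of the 2 members called lower, PSMG3-AS1 (chr7:1609709-1629262, plus strand) went from 3.72 to 1.48 CPM in MDA-MB468 parental cells, from 7.47 to 4.21 in MDA-MB468 CE cells, from 2.48 to 1.29 in BT549 parental cells and from 3.52 to 2.08 in BT549 CE cells. It was lower in 4 of 4 pairs, with a fitted change of -0.87 ± 0.19 (SE), adjusted p = 0.0456. PSMG3, the proteasome assembly gene that starts 932 bases from it, had a fitted change of 0.03 (adjusted p = 0.891). RP11-367G18.1 (LINC02541; chr6:113944737-113971276, minus strand) had 12.7 and 5.83 CPM in MDA-MB468 parental cells without and with drug, 17.1 and 4.82 in CE cells of that line, 0.0237 and 0 in BT549 parental cells and 0.111 and 0.0593 in CE cells of that line. BT549 held next to none of it, and the fitted change was -1.37 ± 0.27 (SE), adjusted p = 0.0405. By the smallest fall over the 4 pairs, RP11-222A11.1 (LINC01515), RP11-110I1.12 (CENATAC-DT), ZNF883, FLVCR1-AS1, CTB-175P5.4 (LINC01224), RP11-250B2.3 and CTD-2017D11.1 were also among the leading 10, with ratios below 0 in 4 of 4 pairs and adjusted p-values between 0.0538 and 0.0933. AP001372.2 (LIPT2-AS1) had log2 ratios of -1.47, -0.67, -0.97 and -2.55 and missed the threshold, -1.35 ± 0.33 (SE), adjusted p = 0.0558. FTX, a transcript of the X inactivation centre, had ratios of -0.55, -0.57, -0.46 and -1.27 and missed it too, -0.62 ± 0.16 (SE), adjusted p = 0.0593. Of the exon bases of FTX 30.6% lie under exons on the other strand, JPX among them.

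**Figure D2:**
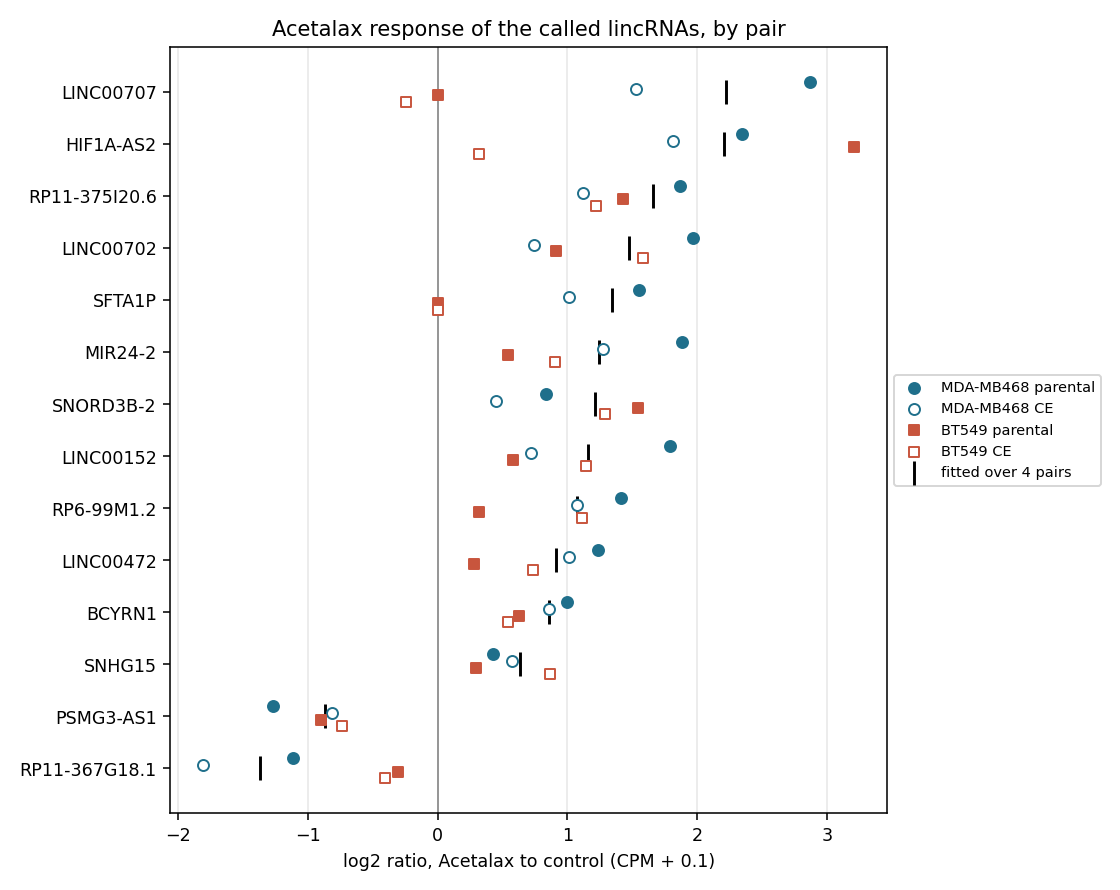
Log2 ratio of Acetalax to control (horizontal axis) in each of the 4 pairs for the 14 lincRNAs called over the 4 backgrounds, circles for MDA-MB468, squares for BT549, filled for parental and open for CE cells, with the fitted change as a bar. LINC00707 and SFTA1P lie at or below 0 in BT549, where both are near 0, and the other 10 called higher lie above 0 in 4 of 4 pairs.

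Of the 12 members called higher, 6 had a promoter in RefSeq, as had 131 of the 229. The promoters of LINC00152 and LINC00702 are shown because each held the AP-1 site TGANTCA, the site of FOS and JUN factors, which is in capitals (250 bases before to 50 after the start, in the direction of transcription).
RefSeq promoter of CYTOR, GRCh38.p14, chr2:87455177-87455476, plus strand: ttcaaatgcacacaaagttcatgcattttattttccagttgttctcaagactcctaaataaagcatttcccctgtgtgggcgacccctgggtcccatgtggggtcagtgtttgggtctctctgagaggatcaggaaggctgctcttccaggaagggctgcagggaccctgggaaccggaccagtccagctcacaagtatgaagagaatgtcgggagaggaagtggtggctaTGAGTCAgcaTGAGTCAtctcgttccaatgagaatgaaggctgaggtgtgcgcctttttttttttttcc
RefSeq promoter of LINC00702, GRCh38.p14, chr10:4243863-4244162, minus strand: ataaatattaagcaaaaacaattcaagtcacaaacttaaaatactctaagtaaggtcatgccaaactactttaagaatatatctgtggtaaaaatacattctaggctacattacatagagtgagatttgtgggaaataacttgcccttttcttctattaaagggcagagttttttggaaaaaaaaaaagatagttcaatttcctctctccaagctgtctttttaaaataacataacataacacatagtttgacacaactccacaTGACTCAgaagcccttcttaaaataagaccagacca
LINC00152 held 2 such sites, 19 and 9 bases before the start, and LINC00702 held 1, 15 bases after it. The site, read on both strands, was in 11 of the 131 member promoters (8.40%) and in 7.71% of all 35116 RefSeq promoters. The antioxidant response element core TGACNNNGC was in 1 of the 6 (LINC00472) and in 13.3% of all promoters, and the CRE (TGACGTCA), the E-box (CACGTG) and TATAAA were in none of the 6 and in 1.85%, 7.26% and 11.5% of all. These matches describe the letters of the windows and not binding.

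Pair by pair, without a test since each condition was 1 library, lincRNAs were at least 2-fold apart more often than genes as a whole. With Acetalax in MDA-MB468 parental cells 23 members (10.0%) were at least 2-fold higher and 15 (6.55%) lower, where 4.32% and 3.39% of genes with 2 CPM or more were. In MDA-MB468 CE cells these were 10 and 9 members (4.37% and 3.93%, against 2.0% and 2.08%), and in BT549 parental cells 9 and 7 (3.93% and 3.06%, against 1.48% and 2.32%). In BT549 CE cells 15 members were higher and 41 lower (6.55% and 17.9%, against 3.87% and 11.9%). In this last pair the median of all genes was -0.20 by library totals, -0.05 by TMM and -0.01 by DESeq2's size factors, and the split of the members was 19 higher and 26 lower by TMM and 20 and 25 by those size factors.

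Coding genes of the same low level were past 2-fold about as often. Among members between 2 and 5 CPM, 15.7% were at least 2-fold apart with Acetalax in MDA-MB468 parental cells and 24.8% in BT549 CE cells, and among coding genes of that level 15.4% and 28.0%. At 10 CPM and above the shares were 20.4% of 54 members against 6.00% of 9557 coding genes in MDA-MB468 parental cells. In BT549 CE cells they were 22.2% against 12.8%. That level has no upper limit, and 46 of the members but only 4955 of the coding genes lay between 10 and 50 CPM. These shares are thus not matched by level. Within that level, 10 of the 11 members apart in MDA-MB468 parental cells were higher, and 8 of the 12 in BT549 CE cells were lower. Members of the same direction in 4 of 4 pairs were 28 higher (12.2%, against 12.1% of genes with 2 CPM or more) and 59 lower (25.8%, against 30.4%).

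The lines responded differently in 8 lincRNAs, among them 3 of the 5 most abundant members. The difference of the Acetalax response between BT549 and MDA-MB468 was tested as an interaction term, with parental and CE cells of a line as its replicates. It was called positive for 5 members (2.18%, where 0.533% of all genes tested and 0.756% of those with 2 CPM or more were) and negative for 3 (1.31%, against 1.25% and 1.82%). All 8 were also called by DESeq2 and with each other scaling.

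LINC00657 (chr20:34633544-34638882, minus strand), NORAD, was lower with the drug in both MDA-MB468 pairs and higher in both BT549 pairs. It went from 221 to 181 CPM in MDA-MB468 parental cells, from 219 to 174 in MDA-MB468 CE cells, from 309 to 403 in BT549 parental cells and from 312 to 421 in BT549 CE cells. The ratios of -0.29 and -0.33 against 0.39 and 0.43 gave an interaction of 0.77 ± 0.13 (SE), adjusted p = 0.0421. CRNDE (chr16:54952775-54963101, minus strand), a lincRNA raised in colorectal and other tumors that starts near the homeobox gene IRX5, went from 172 to 122 CPM in MDA-MB468 parental cells, from 146 to 88.8 in MDA-MB468 CE cells, from 49.1 to 90.7 in BT549 parental cells and from 44.8 to 75.8 in BT549 CE cells. It was lower with the drug in both MDA-MB468 pairs and higher in both BT549 pairs, where it started lower. Its interaction was 1.48 ± 0.16 (SE), adjusted p = 0.0146. IRX5 had Acetalax ratios of -0.87, -0.49, -0.05 and -0.77, so that it differed little in BT549 parental cells.

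MIR503HG (chrX:133677367-133680741, minus strand), which holds the miR-503 and miR-424 sequences above, went from 1.48 to 5.99 CPM in MDA-MB468 parental cells, from 5.57 to 14.5 in MDA-MB468 CE cells, from 77.2 to 58.7 in BT549 parental cells and from 74.4 to 30.9 in BT549 CE cells. It rose from a low level in MDA-MB468 and fell from a high level in BT549, an interaction of -2.43 ± 0.33 (SE), adjusted p = 0.0291. LINC00665 went from 94.6 to 95.3 CPM in MDA-MB468 parental cells, from 91.4 to 112 in MDA-MB468 CE cells, from 42.5 to 24.9 in BT549 parental cells and from 32 to 13 in BT549 CE cells. MDA-MB468 held more of it, with next to no difference in parental cells, and BT549 lost part of it in both backgrounds. The interaction was -1.13 ± 0.21 (SE), adjusted p = 0.0470. CTC-444N24.11 went from 31.5 to 28.6 CPM in MDA-MB468 parental cells, from 30.6 to 25.1 in MDA-MB468 CE cells, from 12.8 to 25 in BT549 parental cells and from 15.4 to 30.3 in BT549 CE cells. The treated BT549 libraries came close to the MDA-MB468 level, an interaction of 1.24 ± 0.20 (SE), adjusted p = 0.0398.

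The other 3 were of lower abundance. AC009404.2 went from 1.09 to 0.721 CPM in MDA-MB468 parental cells, from 1.11 to 0.652 in MDA-MB468 CE cells, from 3.24 to 11.6 in BT549 parental cells and from 1.47 to 9.25 in BT549 CE cells. Treated BT549 cells held the most of it, and its interaction was 2.96 ± 0.41 (SE), adjusted p = 0.0297. LINC01003 had ratios of -1.28, -1.30, 0.70 and 0.07 and an interaction of 1.77 ± 0.33 (SE), adjusted p = 0.0473. CTC-529P8.1 (SH3TC2-DT), which starts 154 bases from SH3TC2 on the other strand, had ratios of 1.51, 0.88, -1.51 and -2.19 and an interaction of -3.12 ± 0.48 (SE), adjusted p = 0.0379. For the difference of the response between CE and parental cells no member and no gene was called by edgeR, and 3 members (1.31%, against 0.462% of genes) had an unadjusted p under 0.05, which were NEAT1, HIF1A-AS2 and RP11-54O7.3. DESeq2 called no member.

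**Figure D3:**
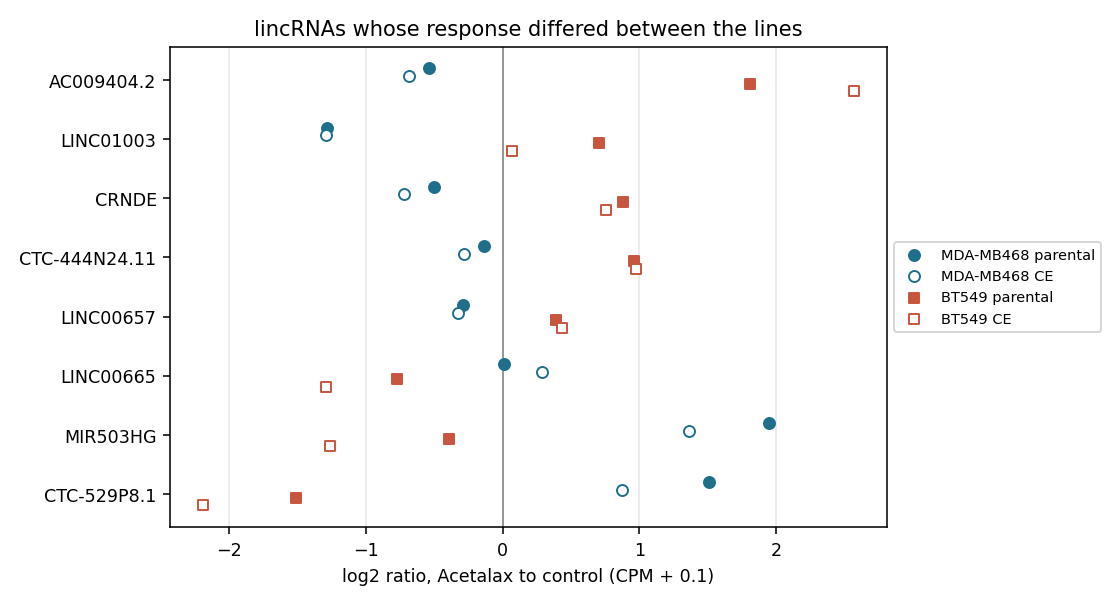
Log2 ratio of Acetalax to control (horizontal axis) in each of the 4 pairs for the 8 lincRNAs whose response differed between the lines, with the same symbols as for the called lincRNAs. In each row the 2 MDA-MB468 circles lie to one side of the 2 BT549 squares, and the calls rest on these same pairs.

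Between untreated CE and parental cells no difference passed the test, and the values of single pairs were largest in BT549. The test over the 4 control libraries, with the lines as the 2 replicates and 1 residual degree of freedom, called no member and no gene by edgeR. At an unadjusted p under 0.05 it gave 7 members (3.06%, against 3.32% of genes), which were NEAT1, MIR205HG, MEG3, LINC00702, SNORD3B-2, LINC00355 and RP11-54O7.3, and DESeq2 called no member. The values that follow are therefore single comparisons of 2 libraries. In MDA-MB468, 13 members were at least 2-fold higher in CE cells (5.68%, against 2.11% of genes with 2 CPM or more) and 6 lower (2.62%, against 1.9%). In BT549 they were 12 higher (5.24%, against 7.54%) and 31 lower (13.5%, against 5.21%). Members above 0 in both lines were 68 (29.7%, against 28.1%) and below 0 in both 41 (17.9%, against 25.5%). At 10 CPM and above 7 of 54 members were at least 2-fold lower in BT549 CE cells and 1 was higher. Together these were 14.8%, against 10.3% of coding genes at 10 CPM and above, which were not matched to the members by level. At lower levels members were at least 2-fold apart in that pair less often than coding genes. The shares were 20.7% against 26.6% between 2 and 5 CPM and 18.5% against 20.5% between 5 and 10 CPM.

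MEG3 (chr14:101245747-101327368, plus strand), the maternally expressed lincRNA of an imprinted region, was nearly absent from BT549 CE cells. It stood at 79.4 and 73.3 CPM in the 2 BT549 parental libraries, at 0.516 and 0.534 in the 2 BT549 CE libraries and at 0 in the 4 MDA-MB468 libraries. The log2 ratio of CE to parental control in BT549 was -7.01 (95% counting interval -7.86 to -6.73), and the treated libraries gave like levels. Other genes of the region, chosen after their values were seen, did not all follow. MEG9 was at 1.18 CPM in parental and 0.0184 CPM in CE control cells of BT549, and at 0.299 and 0.119 CPM in the treated ones. In control cells of BT549 DIO3OS was at 16.5 and 10.8 CPM, and DIO3, the deiodinase gene next to DIO3OS, at 17.6 and 9.38. DLK1 was at 0.0237 CPM or less in each library.

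Other transcripts were higher in CE cells of BT549. LINC00839 had 0.0206 CPM in parental and 0.0453 CPM in CE cells of MDA-MB468, and 0.118 and 9.72 CPM in those of BT549, a log2 ratio of 5.49 in BT549. MIR210HG, the host of the hypoxia-induced miR-210, had 1.56 CPM in parental and 2.49 CPM in CE cells of MDA-MB468, and 1.21 and 11.7 CPM in those of BT549, with log2 ratios of 0.64 and 3.18, and it was lower with Acetalax in 4 of 4 pairs (ratios of -0.23, -1.09, -1.22 and -2.90) without passing the test, -1.38 ± 0.41 (SE), adjusted p = 0.0836. RP11-273G15.2 had 4.71 CPM in parental and 4.94 CPM in CE cells of MDA-MB468, and 0.0237 and 4.52 CPM in those of BT549, so that CE cells of BT549 reached the level of MDA-MB468.

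Changes of at least 2-fold in the same direction in both lines were seen for 2 members. RP11-54O7.3 (LINC02593; chr1:852245-856396, minus strand) had 1.25 CPM in parental and 4.76 CPM in CE cells of MDA-MB468, and 0.284 and 7.25 CPM in those of BT549, with log2 ratios of 1.84 (95% counting interval 1.51 to 2.36) and 4.26 (3.85 to 5.64). SAMD11, the coding gene that starts 3864 bases away on the other strand, had log2 ratios of 1.98 and 4.57. LINC00968 had 0.185 CPM in parental and 0 CPM in CE cells of MDA-MB468, and 6.15 and 2.06 CPM in those of BT549, with log2 ratios of -1.51 and -1.53, of which the first rests on next to no counts. Those at 2-fold or more were 1 member each way (0.437%), where 0.48% of genes with 2 CPM or more were at least 2-fold higher in both lines and 0.299% lower.

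Smaller ratios of 1 sign in both lines ranked next. Upward they were those of NEAT1, given above, LINC00355 (0.98 and 0.81), TP53TG1 (0.64 and 1.35), MIR137HG (0.74 and 0.54), RP11-46D6.1 (0.52 and 0.97) and RP13-516M14.1 (0.88 and 0.51). Downward they were those of SNORD3B-2 (-1.65 and -0.85), SNORD3A (-0.68 and -1.51), ZNF883 (-0.59 and -0.64), LINC00702 (-0.58 and -1.40), CTB-175P5.4, RP11-37B2.1 (RIPK2-DT) and CASC15. In SNORD3B-2 and LINC00702 the CE cells were thus below the parental cells and the treated cells above the untreated ones. Of 12 tested RNAs without a poly(A) tail none was called between CE and parental cells. Only 2 of the list had a mean of 2 CPM or more, 1 of them a member, and their median fitted change was -1.36. Over all genes of that level the median was -0.00322. The summed level of the whole list was 15.6 CPM in parental and 13 CPM in CE control cells of MDA-MB468. In those of BT549 it was 14.7 and 5.94 CPM. The part of these RNAs in the ratios of the U3 copies was not tested.

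Opposite directions of at least 2-fold in the 2 lines were seen for 6 members (2.62%, against 0.693%). RP11-346D6.6 had 0.802 CPM in parental and 7.59 CPM in CE cells of MDA-MB468, and 0.402 and 0.0369 CPM in those of BT549, and RP1-140K8.5 had 4.69 CPM in parental and 20.5 CPM in CE cells of MDA-MB468, and 0.639 and 0.221 CPM in those of BT549. The other 4 were CTC-529P8.1, LINC00478 (MIR99AHG), GAS6-AS2 and RP11-380J14.1. MIR503HG had 1.48 CPM in parental and 5.57 CPM in CE cells of MDA-MB468, and 77.2 and 74.4 CPM in those of BT549, higher in CE cells of MDA-MB468 and level in BT549. MIR205HG, MEG3 and other transcripts at 0 in 1 line could move in only 1 of the 2 pairs.

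**Figure D4:**
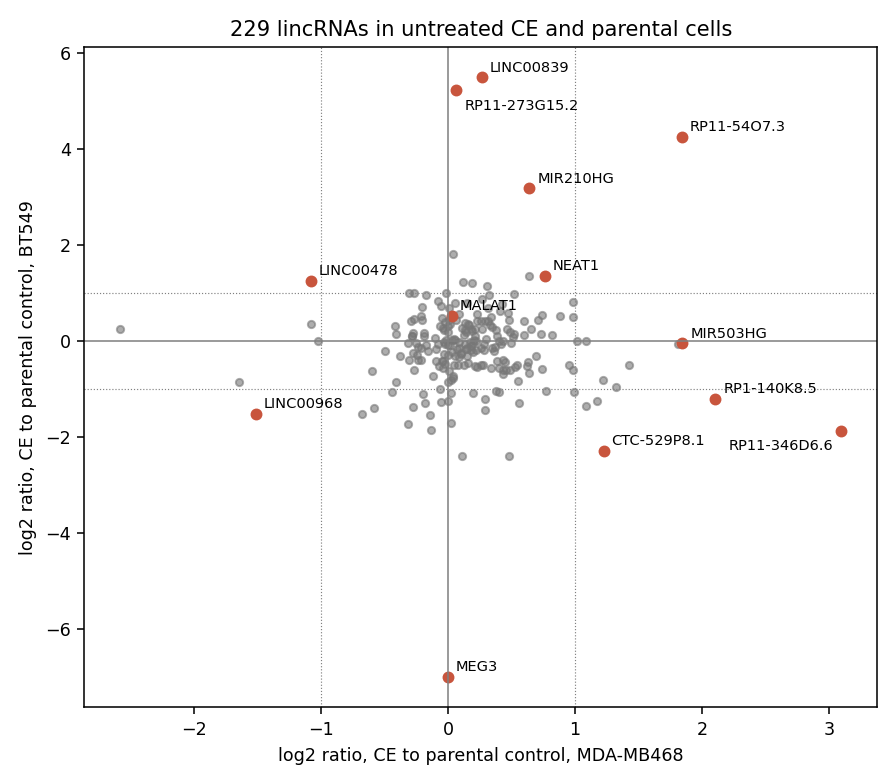
Log2 ratio of CE to parental control cells in MDA-MB468 (horizontal axis) and BT549 (vertical axis) for the 229 lincRNAs, 1 point each, from 1 library per condition, with dotted lines at 2-fold. RP11-54O7.3 and LINC00968 lie past 2-fold in the same direction in both lines, and MEG3, at 0 in MDA-MB468, lies at -7.01 in BT549.

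The lines differed in 148 of these transcripts by the adjusted test, more of them higher in MDA-MB468. In this test the 4 conditions served as replicates. The 4 libraries of a line are repeated samples of 1 line and its CE derivative. The p-values between the lines thus measure the spread between conditions and compare these cultures only. Over the 4 conditions 52 members were called higher in BT549 (22.7%, where 27.3% of all genes tested and 30.6% of genes with 2 CPM or more were) and 96 higher in MDA-MB468 (41.9%, against 29.5% and 29.1%). The 4 BT549 libraries lay wholly above the 4 MDA-MB468 libraries for 43 members (18.8%, against 23.7%) and wholly below them for 103 (45.0%, against 32.4%). Line means were at least 10-fold apart with BT549 higher for 16 members (6.99%, against 5.15%) and with MDA-MB468 higher for 39 (17.0%, against 7.93%). The level limit bears on these counts, since a transcript of 1 line passed it on that line alone: 73 members had a line mean of 2 CPM or more only in MDA-MB468 and 30 only in BT549. Among the 126 members with 2 CPM or more in both lines, 24 were called higher in BT549 (19%, against 29.8% of such genes) and 30 in MDA-MB468 (23.8%, against 23.6%). The epithelial and mesenchymal marker sums given above moved with the same divide, and their part in it was not tested. In bulk libraries fewer cells with a transcript and less of it per cell cannot be told apart.

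Transcripts of MDA-MB468 included MIR205HG, the host of miR-205, a microRNA of epithelial cells. It had 86.4 and 81.1 CPM in MDA-MB468 parental cells without and with drug, 183 and 150.5 in CE cells of that line, 0 and 0.0230 in BT549 parental cells and 0 and 0 in CE cells of that line, and all BT549 libraries together held 1 count, a ratio of 23591-fold (95% counting interval 4234 to 931815). SFTA1P had no count in BT549 and was at least 1117-fold higher in MDA-MB468, from the limit of 3 counts over the 4 libraries that a count of 0 allows. On the same footing RP11-91J3.3 (LINC02515) was at least 524-fold higher. LINC00925 (MIR9-3HG, the host of a miR-9 copy) had 13.5 and 5.25 CPM in MDA-MB468 parental cells without and with drug, 16.2 and 8.87 in CE cells of that line, 0 and 0 in BT549 parental cells and 0.0184 and 0 in CE cells of that line, with 1 count over BT549. AC016735.2, RP11-465B22.8, LINC00707 and AC005863.1 also had 1 count over BT549, and RP11-838N2.3 (LINC01895) had 2. RP11-10A14.5 (PPP1R3B-DT) lay between 38.9 and 52.3 CPM in MDA-MB468 and at no more than 0.0989 CPM in BT549.

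Transcripts of BT549 included MEG3, at least 2181-fold higher than in MDA-MB468 over the 4 libraries of each line although 2 of the BT549 libraries held little of it, and DIO3OS, with 2369 counts over BT549 and 1 over MDA-MB468. MIR137HG, the host of miR-137, a microRNA of neural tissue, had 0.0411 and 0.247 CPM in MDA-MB468 parental cells without and with drug, 0.136 and 0.0421 in CE cells of that line, 27.2 and 29.7 in BT549 parental cells and 39.6 and 32.4 in CE cells of that line, a fitted difference of 8.34 ± 0.51 (SE), adjusted p = 5.82e-05. MIR137HG passed the level limit on BT549 alone, so this difference is given as a description. No count in MDA-MB468 was found for LINC00052, MIR4458HG, AC093627.9, RP4-760C5.5 and GDNF-AS1, which were at least 304-, 299-, 269-, 258- and 241-fold higher in BT549. RP3-460G2.2 lay between 15.3 and 23.3 CPM in BT549 and had 2 counts over MDA-MB468, and LINC01050, with 1247 counts over BT549, had 2 as well. AC104135.4 (LINC01293) lay between 6.75 and 52.3 CPM in BT549 and at no more than 0.105 CPM in MDA-MB468. MIR24-2 and RP6-99M1.2, both raised by Acetalax, were also higher in BT549, by 1.06 and 1.53 on the log2 scale (adjusted p = 0.0385 and 0.00244 by edgeR). For MIR24-2 the libraries of the lines overlapped.

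**Figure D5:**
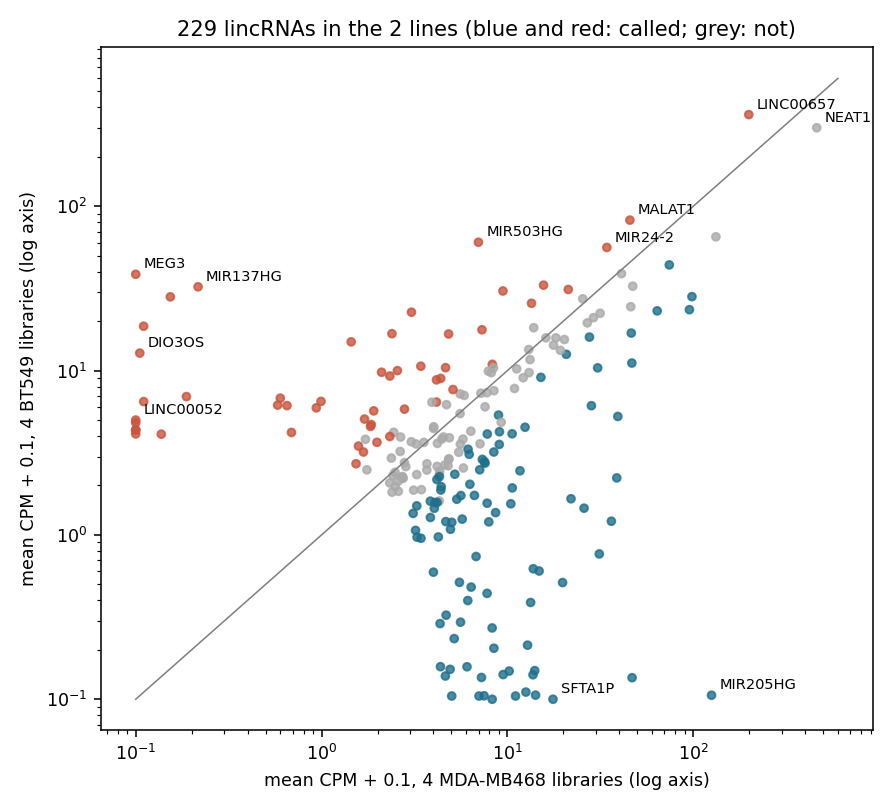
Mean CPM plus 0.1 over the 4 MDA-MB468 libraries (horizontal log axis) and the 4 BT549 libraries (vertical log axis) for the 229 lincRNAs, red for those called higher in BT549, blue for those called higher in MDA-MB468 and grey for the rest. NEAT1 is the rightmost point and was not called (adjusted p = 0.117 by edgeR), while MEG3 and MIR205HG lie at the left and lower edges.

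For transcripts that start back to back with a coding gene, log2 ratios between the lines correlated with those of the neighbour. The start of 44 members lay within 1 kb of a coding gene transcribed in the other direction. Across these 44 pairs, the log2 ratio of the line means correlated between lincRNA and neighbour with Pearson's r = 0.90, and the CE to parental ratios with r = 0.64 in MDA-MB468 and 0.52 in BT549. For the Acetalax ratios r was 0.09 and 0.28 in MDA-MB468 parental and CE cells and 0.37 and 0.22 in those of BT549, and for the fitted Acetalax change 0.03. These are descriptions across genes that share libraries, and genes are not independent replicates. FLVCR1-AS1 had Acetalax ratios of -1.42, -0.52, -0.65 and -1.27, while FLVCR1, a heme and choline transporter gene that starts 167 bases away, was called higher by 0.77 (adjusted p = 0.0327 by edgeR). TP53TG1 and its neighbour CROT both had ratios below 0 in 4 of 4 pairs. For 46 members with a coding start within 10 kb in another arrangement r was 0.59 for the fitted Acetalax change, and for 93 farther apart it was 0.25. For the line means r was 0.40 in those 46 and 0.46 in those 93. The line ratio had the same sign in lincRNA and neighbour in 32 of the 44 back-to-back pairs. Among the others the signs matched in 31 of the 46 and 63 of the 93, so agreement in sign differed less than r. The CE to parental ratios were not closer in back-to-back pairs than in the 46, where r was 0.63 in MDA-MB468 and 0.90 in BT549. In the 93 it was 0.28 and 0.25. The CE to parental ratios of BT549 had the same sign in 27 of the 44, 30 of the 46 and 59 of the 93.

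On lists of noncoding transcripts with known roles, the calls with Acetalax were all higher, where 2.72% of all genes tested were called higher and 2.27% lower. Of 22 tested transcripts on a list of microRNA hosts of any biotype, 4 were called higher with Acetalax (MIR17HG, RP6-99M1.2, MIR24-2 and LINC00472) and none lower, with a median of 0.25. The 18 members with a matched microRNA had a median fitted change of 0.000640, against -0.09 over all members. On a list of growth- and stress-inducible lincRNAs 3 of 13 were called higher (LINC00152, MIR17HG and SNHG15), with a median of 0.43. On a list of cancer-linked lincRNAs 3 of 19 were (LINC00152, LINC-PINT and LINC00472), with a median of 0.40, and on a list of p53-linked lincRNAs 2 of 8 (LINC-PINT and LINC00152), with a median of 0.26. No member of the nuclear body and chromatin list (10 tested) or the X inactivation centre list (2 tested) was called. These list medians cover the transcripts with a mean of 2 CPM or more, and the median over all genes of that level was -0.02. The lists were chosen with earlier results of these data known, so their shares are a description. They also overlap, with LINC00152, MIR17HG, LINC00472 and LINC-PINT each called on more than 1 list, so the lists are not separate counts. LUCAT1, a stress-induced lincRNA, had Acetalax ratios of 1.44, -0.18, -0.11 and 0.40 and MIR22HG, a host of miR-22, 0.81, 0.41, 0.01 and -0.13, and neither was called (adjusted p = 0.320 and 0.202 by edgeR).

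By the correlation of log2 CPM over the 8 libraries, the members most like NEAT1 were RP11-46D6.1 (Pearson's r = 0.85), RP11-1246C19.1 (0.75), LINC00472 (0.74), RP4-625H18.2 (0.72) and RP11-273G15.2 (0.71). Those most like MALAT1 were LINC00115 and LINC01050 (both 0.94), MIR4458HG (0.93), LINC00355 (0.92) and LINC00657 (0.91). All these members of the MALAT1 group were higher in BT549, so that the profiles share the divide between the lines. The most alike of 228 others were picked in each case, and no test was made.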

How the data were processed

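RNA-seq was performed by the study on poly(A) selected RNA of 8 cultures with a directional library kit. The deposited counts are raw whole numbers per gene that the authors made by alignment to hg19 and gene counting with STAR, for which the submitters' processing notes give version 2.7.11b. The annotation release and the strand setting are not given in the sources used here. Repeated rows of an identifier were reduced to 1, and 28 symbols that had been turned into dates were restored.

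Members and gene lists were chosen with earlier results of these data known. Counts were scaled to the library total, and log2 ratios were taken of CPM plus a pseudocount of 0.1, which understates the change of low genes. A single pair was called at 2-fold without a test. Tests were fitted over all genes with edgeR 4.0.16 in R 4.3.3 (quasi-likelihood, TMM, filterByExpr, Benjamini-Hochberg, threshold 0.05), with background, condition or line as a block, and all adjusted p-values in the text come from these fits. They left 3, 1 and 2 residual degrees of freedom for the drug and line effects, the CE effect and the interactions. The scripts were tested on simulated data. Alternatives were DESeq2 1.42.0, other scalings, other pseudocounts, no filter on low counts, other limits of CPM and leaving out pairs.

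Named were NEAT1 and MALAT1, the 10 members of highest mean CPM, the 10 with the largest smallest rise and fall over the 4 Acetalax pairs, 8 each way for the smaller CE ratio, 10 each way of those whose line libraries did not overlap, list members, nearest coding genes, and the 5 profiles most like NEAT1 and MALAT1. The members with a large ratio in 1 CE pair or opposite ratios in both, members called and the neighbours of MEG3 were added after their values were seen. Differences in culture or library preparation cannot be told apart from the condition, since each condition was 1 library.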

Additional observations from a re-analysis of the deposited data

Results flagged for a closer look

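The response to Acetalax differed between the lines for 8 lincRNAs by the interaction test of edgeR, which has 2 residual degrees of freedom and takes parental and CE cells of a line as its replicates. On the log2 scale, BT549 response minus MDA-MB468 response, the difference was 0.77 for LINC00657, 1.24 for CTC-444N24.11, 1.48 for CRNDE, 1.77 for LINC01003 and 2.96 for AC009404.2. It was -1.13 for LINC00665, -2.43 for MIR503HG and -3.12 for CTC-529P8.1. In each of the 8 both BT549 ratios lay on one side of both MDA-MB468 ratios, but the call rests on these same ratios. The lines also differ in their level of several of these transcripts, and the part of that in the difference was not tested. Outlying samples could not be looked for within a group, since each condition was 1 library.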

How the results depend on the processing

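The count of members called with Acetalax was 14 in the fit described and depended on the processing. It was 60 with DESeq2 and 66 with no filter on low counts (30 higher and 36 lower), 0 in parental backgrounds only and 0 in CE backgrounds only (each with 2 pairs), and between 0 and 5 when 1 pair was left out, with 0 without the MDA-MB468 parental pair. Calls between CE and parental controls were 0, but 1 with no filter and 1 with all 8 libraries. Members whose response differed between the lines were 8, but 15 with DESeq2 and 34 with no filter. The 148 calls between lines lay between 128 and 132 when a condition was left out. The cause of these shifts was not tested, other than that fewer pairs entered some fits.

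Counts past 2-fold fell with a larger pseudocount, and a limit of 1 or 5 CPM changed the number of members too. They are given in the order MDA-MB468 parental, MDA-MB468 CE, BT549 parental and BT549 CE for Acetalax, then MDA-MB468 and BT549 for CE against parental. Of 229 members the counts were 38, 19, 16, 56, 19 and 43. With a pseudocount of 1 CPM they were 25, 8, 6, 26, 9 and 22, and with 0.5 CPM the second and the third were 12 and 8. On the log2(FPKM + 1) scale they were 11, 4, 2, 9, 6 and 15. With a limit of 5 CPM they were, of 108 members, 19, 9, 4, 26, 6 and 18, and with a limit of 1 CPM, of 359 members, the first 5 were 63, 49, 31, 86 and 37.

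For 82 fitted changes of single members, recomputed under the settings of their own comparison, 528 comparisons with an alternative kept their direction and their side of the threshold, 76 lost the threshold and 31 gained it. The fitted change of NEAT1 with Acetalax turned to -0.15 in CE backgrounds only, the 1 that reversed. For 122 log2 ratios of single pairs, of the members named by rule, recomputed under other scalings and pseudocounts and on the log2(FPKM + 1) scale, 613 values stayed within the counting interval and 119 did not. Each test compared pairs, with the background, condition or line held as a block. At 2 CPM a transcript had 84.5 to 108.5 counts per library, and the spread between cultures of 1 condition is unknown.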
